A study of Mus musculus with 8 samples.

Results

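The purine salvage and breakdown enzymes examined here are 9 mouse genes, Hprt, Aprt, Adk, Dck, Nt5e, Ada, Pnp, Gda and Xdh. They were chosen by name: a probe set belonged to them when its annotation gave exactly 1 of these symbols, which held for 21 of 45101 probe sets and makes them 9 of the 18193 genes named in this way. Of those 21, 19 were bright enough to be tested, and the remaining 2, both of Adk, lay below the filter on all 8 arrays. Another probe set lists Pnp together with Pnp2 and was left out. Total RNA of mouse embryonic stem cells was hybridised to 8 Affymetrix expression arrays in a study of the transcription factor gene Gtf2i. The arrays fell into 4 groups of 2.

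The trap line, titled GTF2iTrap, was a gene-trap derivative of AB2.2 stem cells with the genotype HPRT -/-:GTF2I +/-. The Hprt knockout, titled HPRTKO, had the genotype HPRT -/- and no Gtf2i mutation in its labels. The exon 2 mutant was made by gene targeting in R1 stem cells and had the genotype Δexon2/+ at Gtf2i. The wild-type group had no mutation in its labels, and its line was not named. The trap line and the Hprt knockout are the lines called Hprt-mutant, and the exon 2 mutant and wild-type those called Hprt-intact. All cells grew on feeder cells with leukaemia inhibitory factor and serum replacement. Each genotype stands for a single titled line, so genotype and line of origin cannot be told apart. The titles call the arrays biological replicates. No label says that their cultures were separate, so the p-values speak for the spread of these arrays, which may be technical.

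Cells make purine nucleotides anew on phosphoribosyl pyrophosphate (PRPP), or recover them from free bases and nucleosides. In the salvage arm Hprt joins PRPP to hypoxanthine or guanine, Aprt joins it to adenine, and the kinases Adk and Dck phosphorylate adenosine and deoxynucleosides. In the breakdown arm Nt5e releases adenosine from AMP outside the cell, Ada turns adenosine into inosine, Pnp frees the base, Gda turns guanine into xanthine, and Xdh oxidises hypoxanthine and xanthine to uric acid. Loss of Hprt is a classic selectable trait of embryonic stem cells, since cells without it tolerate toxic purine analogues.

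The promoter windows of 3 members are shown because they stand for the main patterns below: the mutated gene Hprt, the other base-salvage gene Aprt, and Gda, the member with the widest range. Each window is 300 bases of RefSeq sequence in the GRCm38.p6 build, printed 5′ to 3′ on the gene's strand from 250 bases before the gene start to 50 after it. Hprt lies on the plus strand, with its window at chrX:52987828-52988127, Aprt on the minus strand, at chr8:122576858-122577157, and Gda on the minus strand, at chr19:21472612-21472911. Capitals mark matches, on either strand, to the GC box GGGCGG and to the CCAAT box CCAAT.
Hprt: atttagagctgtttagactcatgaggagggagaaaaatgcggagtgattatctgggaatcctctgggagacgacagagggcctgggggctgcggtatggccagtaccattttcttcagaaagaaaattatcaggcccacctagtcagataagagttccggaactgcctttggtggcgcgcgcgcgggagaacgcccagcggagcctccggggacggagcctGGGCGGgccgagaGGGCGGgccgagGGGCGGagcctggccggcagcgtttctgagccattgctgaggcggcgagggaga
Aprt: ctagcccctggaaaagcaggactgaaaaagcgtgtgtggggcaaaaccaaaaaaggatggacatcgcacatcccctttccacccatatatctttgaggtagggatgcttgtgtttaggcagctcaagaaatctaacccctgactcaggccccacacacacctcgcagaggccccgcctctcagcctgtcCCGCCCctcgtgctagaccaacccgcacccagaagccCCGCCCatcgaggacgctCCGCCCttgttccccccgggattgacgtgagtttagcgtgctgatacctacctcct
Gda: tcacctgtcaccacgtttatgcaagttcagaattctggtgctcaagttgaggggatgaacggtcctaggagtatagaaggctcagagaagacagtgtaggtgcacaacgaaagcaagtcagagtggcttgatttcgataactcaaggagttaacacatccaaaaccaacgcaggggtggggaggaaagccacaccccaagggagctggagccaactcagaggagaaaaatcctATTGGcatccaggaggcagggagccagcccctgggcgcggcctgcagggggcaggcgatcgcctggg
The Hprt and Aprt windows each held 3 GC boxes, and the Gda window held none and 1 CCAAT box. Over all 32851 RefSeq promoter windows of this length, 35.7% held a GC box and 37.4% a CCAAT box. The G and C content was 61% for Hprt, 57.7% for Aprt and 55% for Gda, against a median of 52.7% over all windows, and the windows held 22, 14 and 9 CpG dinucleotides against a median of 7. Windows were present for 8 of the 9 members, Xdh being the exception, and Adk had 2. None of these 9 windows held the TATA box TATAAA, which 13.6% of all windows held, or the interferon element, read as GAAA, any 2 bases and GAAA, which 3.44% held. The kappa B core, read as GGGA, any 4 bases and CC, was matched in the windows of Nt5e, where it overlapped a GC box, and Ada, and in 20.7% of all windows. These matches describe letters and not binding.

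Values are log2 normalized intensities, and each gene is represented by its brightest probe set unless another is named. The correlation between both arrays of a group was 0.996 to 0.997, and their differences had an SD of 0.148 to 0.187. The Hprt knockout stood apart, at 0.887 to 0.889 with wild-type, 0.908 to 0.909 with the trap line and 0.93 to 0.932 with the exon 2 mutant. Between the other groups the correlation was 0.971 to 0.979, and between trap line and wild-type 0.978 to 0.979. Stem cell markers were bright throughout: all 12 listed, Pou5f1 and Nanog among them, lay above the filter on every array. Their levels were not alike. As a scale for the counts, the tests described below called 39.6% of all probe sets higher and 24.4% lower in the Hprt knockout against wild-type. The shares were 20.7% and 14.4% in the trap line, and 26.3% and 20.1% in the exon 2 mutant. Against wild-type 7 of 12 stem cell markers rose in the trap line (median 0.23). In the Hprt knockout 9 rose and 2 fell (median 0.42), and in the exon 2 mutant 9 rose and 1 fell (median 0.28). The count became 4 in the trap line without the second trap array or either wild-type array, and 5 in the exon 2 mutant without the first wild-type array. Of 10 primitive endoderm markers, 3 rose and 6 fell in the trap line (median -0.49), 7 rose and 1 fell in the Hprt knockout (median 0.46), and 0 rose and 8 fell in the exon 2 mutant (median -0.86). The 6 became 3 without the first trap array or the first wild-type array. Fibroblast markers were far lower in the Hprt knockout than in the other groups. The mean of 27 markers was 11.65 and 11.66 on the trap line arrays and 7.50 and 7.45 in the Hprt knockout. It was 11.41 and 11.45 in the exon 2 mutant, and 11.99 and 12.01 in wild-type. In the Hprt knockout 25 and 24 of these 27 markers still lay above the filter level, which was log2 5.35 on average, but Lum at 5.24 and Fap at 4.01 lay below it on both arrays. Interferon response genes followed a similar course, with a mean over 10 genes of 9.78 and 9.79 in the trap line, 6.13 and 6.23 in the Hprt knockout, 9.99 and 9.99 in the exon 2 mutant, and 10.29 and 10.30 in wild-type. Every comparison with the Hprt knockout was therefore also a comparison of arrays with unequal fibroblast signal, and its part in the results below was not tested.

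**Figure D1:**
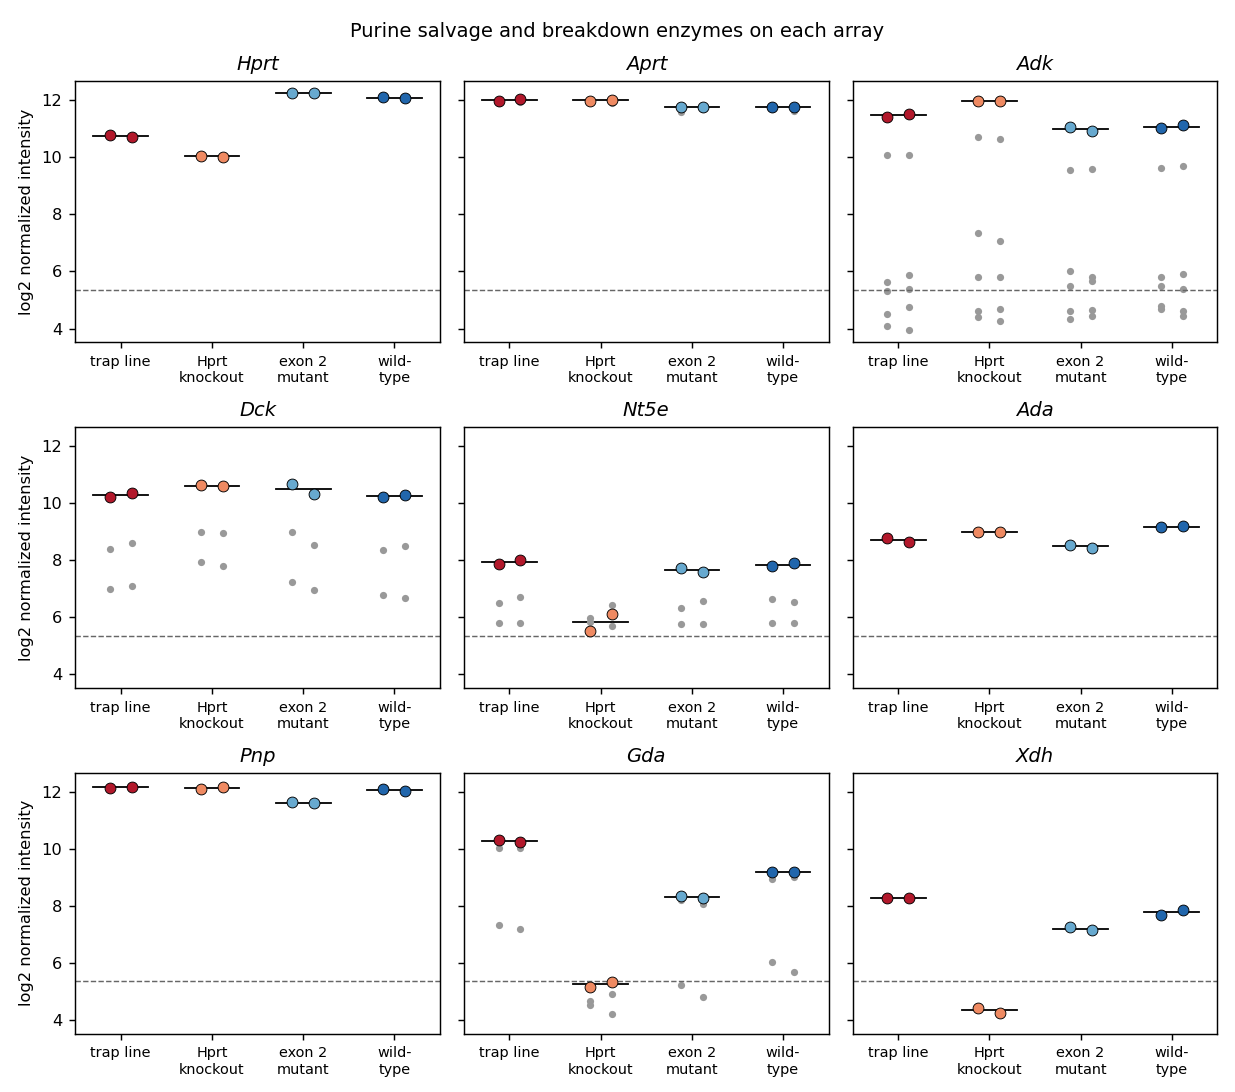
Log2 normalized intensity (y axis) of the 9 enzymes on each of the 8 arrays, grouped by line (x axis). Coloured points are the brightest probe set of each gene, black bars their mean over 2 arrays, grey points the other probe sets and the dashed line the mean filter level of 5.35. Hprt is low in the trap line and the Hprt knockout, the coloured points of Gda and Xdh lie below the dashed line in the Hprt knockout only, and Aprt and Pnp stay within 0.29 and 0.56 over all arrays.

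A gene was called when the limma test gave an adjusted p under 0.05, adjusted over all 28786 probe sets tested. In the Hprt knockout against wild-type, 3 of the 9 enzymes rose (Adk, Dck and Aprt) and 4 fell (Gda, Xdh, Hprt and Nt5e). Of all tested probe sets 39.6% were called higher in this comparison and 24.4% lower. In the trap line against wild-type, 4 enzymes rose (Gda, Xdh, Adk and Aprt), with 20.7% of all probe sets called higher, and 2 fell (Hprt and Ada), with 14.4% called lower. In the trap line against the Hprt knockout, which share the Hprt genotype, Gda, Xdh, Nt5e and Hprt rose and Adk, Dck and Ada fell. That is 4 and 3 of 9, beside 23.1% and 35.8% of all probe sets. In the exon 2 mutant against wild-type, 1 enzyme rose (Hprt, with 26.3% of all probe sets called higher) and 4 fell (Gda, Ada, Xdh and Pnp, with 20.1% called lower). The difference between these effects, trap line minus Hprt knockout set against exon 2 mutant minus wild-type, was called positive for 6 enzymes and negative for 2, beside 24.4% and 37% of all probe sets and 61.4% in all. The median difference of the 9 enzymes was -0.19, 0.12, 0.03 and -0.19 in the 4 comparisons, in the order given, and that of all tested probe sets was 0.11, 0.02, -0.11 and 0.01. With so many probe sets called in each comparison, a count of enzymes near these shares is not a result about the enzymes. The comparisons share arrays, so their counts are not independent.

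**Figure D2:**
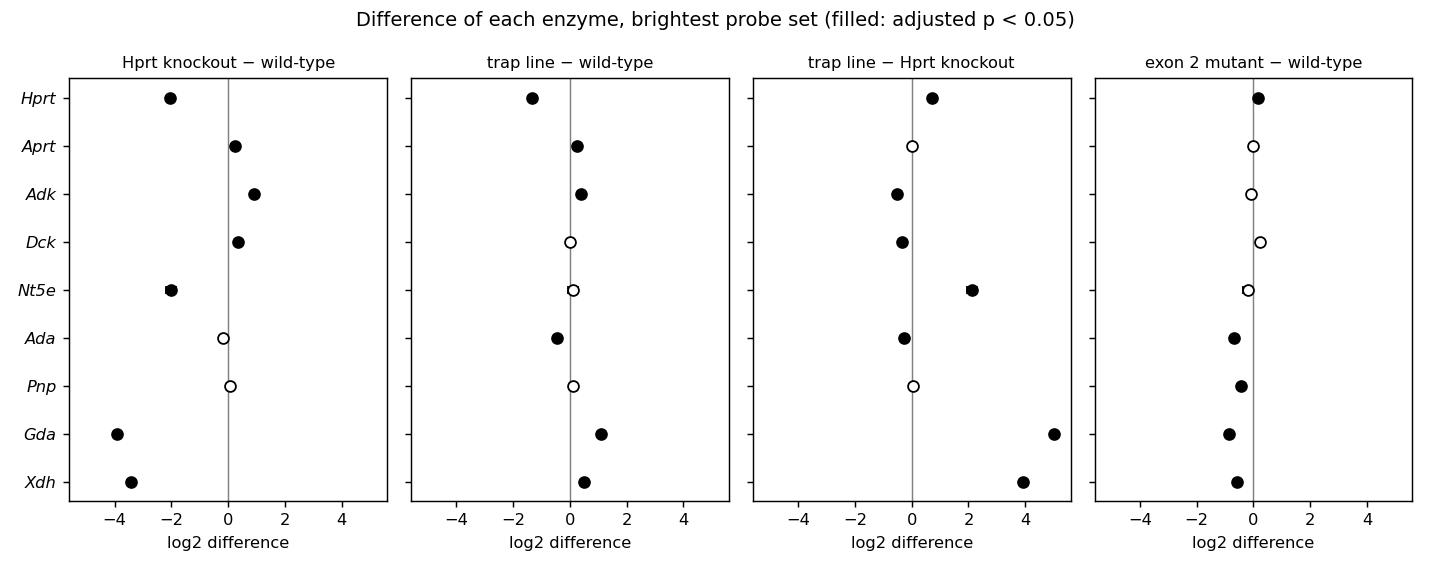
Log2 difference (x axis, with a bar of 1 standard error, mostly hidden by the symbol) of each enzyme (y axis) in 4 comparisons of 2 against 2 arrays. Filled symbols have an adjusted p under 0.05. Gda and Xdh span the widest range, at -3.92 and -3.43 in the Hprt knockout against wild-type and 5.01 and 3.92 in the trap line against the Hprt knockout.

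Hprt, on chromosome X at 52988078 to 53021660 of GRCm38.p6, was the gene that the labels name as mutated. Its probe set 1448736_a_at read 10.76 and 10.72 in the trap line, 10.05 and 10.02 in the Hprt knockout, 12.25 and 12.25 in the exon 2 mutant, and 12.09 and 12.08 in wild-type. All 4 arrays of the Hprt-mutant lines lay below all 4 of the Hprt-intact lines, with a gap of 1.32 between the nearest arrays. The signal remained far above the filter level in both mutant lines, and where its probes lie relative to the mutation was not analysed here. Set against wild-type, Hprt fell by 2.05 ± 0.05 (SE) in the Hprt knockout, a 4.13-fold lower signal (adjusted p = 1.49e-07), and by 1.34 ± 0.05 in the trap line, a 2.53-fold lower one (adjusted p = 2.14e-05). Between the mutant lines Hprt was 0.71 ± 0.05 higher in the trap line (adjusted p = 3.59e-05). Fibroblast markers were also higher in that comparison, 27 of 27 of them, with a median of 4.07, and their part in the difference was not tested. Hprt in the exon 2 mutant was 0.17 ± 0.05 above wild-type (adjusted p = 0.0406), a call lost after cyclic loess scaling (0.07, adjusted p = 0.339) and whenever any array was left out. In bulk RNA, fewer cells of a type and less RNA per cell cannot be told apart.

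Aprt, the adenine counterpart of Hprt, was slightly higher in both Hprt-mutant lines. It read 11.95 and 12.03 in the trap line, 11.96 and 12.01 in the Hprt knockout, 11.74 and 11.76 in the exon 2 mutant, and 11.76 and 11.75 in wild-type. The 2 lines of each Hprt genotype lay together and the genotypes did not overlap. Aprt rose by 0.23 ± 0.06 in the Hprt knockout (adjusted p = 0.0103) and 0.24 ± 0.06 in the trap line (adjusted p = 0.0185) against wild-type, a 1.17-fold and a 1.18-fold change. Its second probe set, 1423801_a_at, gave 0.27 in both (adjusted p = 0.00617 and 0.0134). The trap line and the Hprt knockout differed by 0.01 ± 0.06 (adjusted p = 0.921), and exon 2 mutant and wild-type by less than 0.01 (adjusted p = 0.978). The rise in the Hprt knockout depended on scaling: after cyclic loess it was 0.03 (adjusted p = 0.634), and without the second Hprt knockout array it was 0.20 (adjusted p = 0.058). The rise in the trap line was 0.18 after cyclic loess (adjusted p = 0.0552), and it missed the threshold without the second trap array (0.20, adjusted p = 0.107) or without either wild-type array (adjusted p = 0.0731 and 0.0815).

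Adk, adenosine kinase, rose in both Hprt-mutant lines and more in the Hprt knockout. Probe set 1438292_x_at read 11.41 and 11.51 in the trap line, 11.98 and 11.97 in the Hprt knockout, 11.04 and 10.90 in the exon 2 mutant, and 11.03 and 11.11 in wild-type. The Hprt knockout arrays were the highest, the trap line came next, and the exon 2 mutant and wild-type overlapped. The rise was 0.90 ± 0.07 in the Hprt knockout (adjusted p = 3.68e-05) and 0.39 ± 0.07 in the trap line (adjusted p = 0.00644) against wild-type, and the trap line lay 0.51 ± 0.07 below the Hprt knockout (adjusted p = 0.000784). The suffix of this probe set marks probes that may match other transcripts as well. The next brightest, 1416319_at, gave 1.01 in the Hprt knockout (adjusted p = 7.25e-06) and 0.41 in the trap line (adjusted p = 0.0021). The dimmer 1449641_at and 1421767_at rose in the Hprt knockout, by 1.35 and 0.36, but read -0.10 (adjusted p = 0.596) and -0.07 (adjusted p = 0.542) in the trap line. Between exon 2 mutant and wild-type Adk differed by -0.10 (adjusted p = 0.293), a difference that passed only after cyclic loess (-0.20, adjusted p = 0.0486).

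Dck, deoxycytidine kinase, which also accepts deoxyadenosine and deoxyguanosine, varied little on its brightest probe set. It read 10.21 and 10.34 in the trap line, 10.62 and 10.59 in the Hprt knockout, 10.68 and 10.30 in the exon 2 mutant, and 10.22 and 10.29 in wild-type. No neighbours in the order of the 4 groups differed beyond their spread, and the exon 2 mutant arrays were the most spread. The Hprt knockout lay 0.35 ± 0.12 above wild-type (adjusted p = 0.0366), and the trap line 0.34 ± 0.12 below the Hprt knockout (adjusted p = 0.0479). Both calls were lost after cyclic loess (0.11, adjusted p = 0.419, and -0.17, adjusted p = 0.245) and kept their sign. The rise was also lost without any single array of the Hprt knockout or wild-type (adjusted p of 0.0844 to 0.14), and the difference between the mutant lines without any single array of the trap line, the Hprt knockout or wild-type (adjusted p of 0.0711 to 0.199). The exon 2 mutant was 0.24 above wild-type (adjusted p = 0.155), without its first array 0.05 (adjusted p = 0.7) and without its second 0.42 (adjusted p = 0.011). The dimmest probe set, 1428838_a_at, read 7.0 and 7.08 in the trap line, 7.92 and 7.78 in the Hprt knockout, 7.24 and 6.96 in the exon 2 mutant, and 6.78 and 6.68 in wild-type. On it the Hprt knockout stood 1.12 ± 0.10 above wild-type (adjusted p = 7.52e-05), so the probe sets agreed in direction and not in size. It was also called in the exon 2 mutant against wild-type (0.38, adjusted p = 0.0232). In the combined comparison of Hprt genotypes below it was called as well (0.53, adjusted p = 0.000996). There the brightest probe set read 0.07 (adjusted p = 0.543). The remaining one, 1449176_a_at, was called in neither (0.33, adjusted p = 0.125, and 0.14, adjusted p = 0.342).

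Nt5e, the surface enzyme also known as CD73 and a common marker of mesenchymal cells, fell in the Hprt knockout. Probe set 1428547_at read 7.88 and 8.02 in the trap line, 5.53 and 6.11 in the Hprt knockout, 7.71 and 7.58 in the exon 2 mutant, and 7.78 and 7.90 in wild-type. The Hprt knockout arrays lay below all others and were also the least alike. The fall against wild-type was -2.02 ± 0.18 (adjusted p = 5.57e-05), and the trap line exceeded the Hprt knockout by 2.13 ± 0.18 (adjusted p = 5.43e-05). The trap line was 0.12 ± 0.18 from wild-type (adjusted p = 0.651) and the exon 2 mutant -0.19 ± 0.18 (adjusted p = 0.421). The other probe sets were dim: 1422974_at gave -0.45 in the Hprt knockout (adjusted p = 0.0737), and 1459023_at stayed between 5.69 and 5.97 on all 8 arrays. In the trap line against the Hprt knockout they gave 0.47 (adjusted p = 0.0678) and -0.03 (adjusted p = 0.833), so neither was called. All 27 fibroblast markers also fell in the Hprt knockout against wild-type, their median being -4.70, and their part in the fall of Nt5e was not tested.

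Ada, adenosine deaminase, was lower in both Gtf2i mutant lines than in wild-type. It read 8.77 and 8.65 in the trap line, 8.98 and 9.0 in the Hprt knockout, 8.54 and 8.42 in the exon 2 mutant, and 9.15 and 9.20 in wild-type. The order ran from wild-type through the Hprt knockout and the trap line to the exon 2 mutant, with no overlap of arrays. Its last step, trap line above exon 2 mutant, was 0.23 ± 0.07 (adjusted p = 0.0397). That call was lost without the filter on dim probe sets (adjusted p = 0.0805) and with only the arrays compared (adjusted p = 0.0911). It was also lost with the replicate number as a block (adjusted p = 0.0602). Leaving out either array of the Hprt knockout or of wild-type lost it too. So did leaving out the first trap array (0.16) or the second exon 2 mutant array (0.17). Ada fell by 0.69 ± 0.07 in the exon 2 mutant (adjusted p = 0.000353) and by 0.47 ± 0.07 in the trap line (adjusted p = 0.00297) against wild-type. Against the Hprt knockout the trap line was -0.28 ± 0.07 (adjusted p = 0.0123), and after cyclic loess -0.11 (adjusted p = 0.227). The call was also lost without the second Hprt knockout array (-0.27, adjusted p = 0.0545) and without the second trap array (-0.22, adjusted p = 0.079). The Hprt knockout was -0.19 ± 0.07 from wild-type (adjusted p = 0.0554), a difference that passed in 7 alternative settings, among them cyclic loess (-0.43, adjusted p = 0.00125).

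Pnp, purine nucleoside phosphorylase, was lower in the exon 2 mutant than in any other group. It read 12.14 and 12.16 in the trap line, 12.10 and 12.15 in the Hprt knockout, 11.62 and 11.60 in the exon 2 mutant, and 12.08 and 12.01 in wild-type. The other 3 groups lay within 0.15 of each other. Pnp fell by 0.43 ± 0.06 in the exon 2 mutant against wild-type (adjusted p = 0.00107). The Hprt knockout was 0.08 ± 0.06 from wild-type (adjusted p = 0.259), which turned to -0.11 after cyclic loess (adjusted p = 0.139), and the trap line was 0.11 ± 0.06 from it (adjusted p = 0.196).

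Gda, guanine deaminase, had the widest range of the 9 enzymes. It lies on chromosome 19 at 21391307 to 21472661 of GRCm38.p6, and its promoter window is printed above. Probe set 1435748_at read 10.30 and 10.22 in the trap line, 5.17 and 5.34 in the Hprt knockout, 8.35 and 8.29 in the exon 2 mutant, and 9.18 and 9.17 in wild-type. The 4 groups were fully apart, with the trap line highest and both Hprt knockout arrays below the filter level. Since no detection calls were used, a fold against the Hprt knockout depends on the array background. Gda fell by 3.92 ± 0.07 in the Hprt knockout against wild-type (15.1-fold, adjusted p = 3.65e-08). It rose by 1.09 ± 0.07 in the trap line against wild-type (2.12-fold, adjusted p = 0.000126), and the trap line stood 5.01 ± 0.07 above the Hprt knockout (32.1-fold, adjusted p = 2.01e-08). In the exon 2 mutant it fell by 0.85 ± 0.07 (adjusted p = 0.000188). The other probe sets gave the same directions, with 1435749_at at -4.19, 1.05, 5.24 and -0.85 and 1422868_s_at at -1.48, 1.40, 2.89 and -0.85, for the 4 comparisons in that order, and all of these passed.

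Xdh, xanthine dehydrogenase, whose gene is known to respond to interferon in mouse cells, took the same order of groups as Gda. It read 8.27 and 8.26 in the trap line, 4.43 and 4.26 in the Hprt knockout, 7.25 and 7.15 in the exon 2 mutant, and 7.69 and 7.87 in wild-type. Again no groups overlapped, and both Hprt knockout arrays lay below the filter level, so those folds depend on the array background. Xdh fell by 3.43 ± 0.09 in the Hprt knockout (10.8-fold, adjusted p = 1.34e-07) and by 0.58 ± 0.09 in the exon 2 mutant (adjusted p = 0.00175), and rose by 0.49 ± 0.09 in the trap line (adjusted p = 0.00565), each against wild-type. The trap line stood 3.92 ± 0.09 above the Hprt knockout (15.1-fold, adjusted p = 8.55e-08).

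The fall of Gda and Xdh in the Hprt knockout came with lower fibroblast and interferon signal. In the trap line, where Gda and Xdh rose, more markers of both lists fell than rose, and the fibroblast list was mixed. Dcn averaged 13.32 in the trap line and 12.81 in wild-type, and S100a4 13.39 and 12.59. Thbs1 averaged 11.58 in the trap line and 13.55 in wild-type, and Tagln 11.78 and 13.49. In the Hprt knockout against wild-type, 0 fibroblast markers rose and 27 of 27 fell, and of the interferon genes 10 of 10 fell, with a median of -3.33. In the exon 2 mutant against wild-type, 23 of 27 fibroblast markers fell, with a median of -0.50, and 7 of 10 interferon genes, with a median of -0.55. In the trap line against wild-type, 4 fibroblast markers rose and 12 of 27 fell, with a median of -0.18, and 2 interferon genes rose and 7 of 10 fell, with a median of -0.76. Of all probe sets 39.6% were called higher and 24.4% lower in the Hprt knockout. The shares were 26.3% and 20.1% in the exon 2 mutant and 20.7% and 14.4% in the trap line, each against wild-type. The part of fibroblasts or of the interferon response in the levels of Gda and Xdh was not tested.

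**Figure D3:**
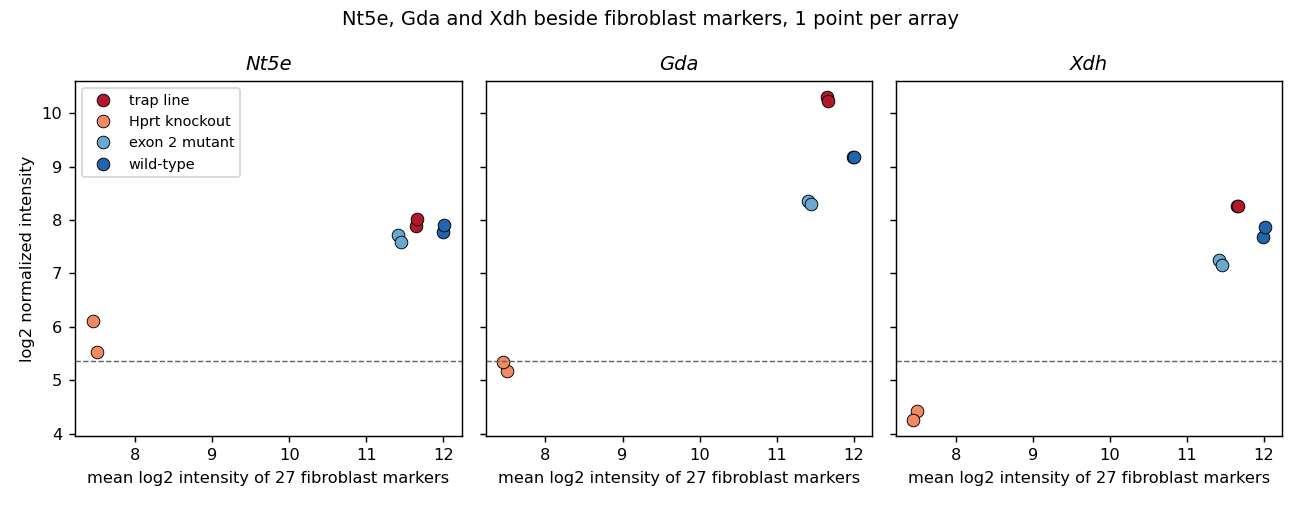
Log2 normalized intensity of Nt5e, Gda and Xdh (y axis) against the mean log2 intensity of 27 fibroblast markers (x axis), 1 point per array, with colours for the 4 groups and the mean filter level of 5.35 as a dashed line. The Hprt knockout arrays lie at the low end of both axes, at 7.50 and 7.45 for the markers. The trap line arrays lie above wild-type for Gda and Xdh. Their marker means are 11.65 and 11.66, beside 11.99 and 12.01 in wild-type.

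The Hprt-mutant lines together were then set against the Hprt-intact lines, 4 arrays against 4, with a standard error that covers the spread between arrays and not between lines. Of the 9 enzymes 3 were higher and 4 lower, beside 30.7% of all probe sets called higher and 21.8% lower. Only 4 of these calls had all arrays of the mutant lines on 1 side of all arrays of the intact lines: Aprt (0.24 ± 0.04), Adk (0.70 ± 0.05) and Pnp (0.31 ± 0.04) were higher and Hprt (-1.78 ± 0.04) was lower. Of all tested probe sets 9.1% were called and apart on the high side and 5.91% on the low side. The gap between the nearest arrays was 0.02 for Pnp, 0.19 for Aprt and 0.30 for Adk. Adk probe set 1416319_at was apart as well (0.76, adjusted p = 1.15e-05). On the dimmer Adk probe sets 1449641_at (0.6, adjusted p = 0.00147) and 1421767_at (0.07, adjusted p = 0.352) the arrays overlapped. Pnp was not called against wild-type in the Hprt knockout (0.08, adjusted p = 0.259) or the trap line (0.11, adjusted p = 0.196). The exon 2 mutant, 1 of the Hprt-intact lines, read -0.43 against wild-type for Pnp (adjusted p = 0.00107). After cyclic loess scaling only Hprt and Adk kept arrays fully apart. The calls for Gda (-0.99), Xdh (-1.18) and Nt5e (-0.86) joined a trap line not below wild-type with an Hprt knockout far below it. Without the Hprt knockout arrays, a setting chosen after seeing the data, the comparison was of the trap line alone against the Hprt-intact lines. Gda, Xdh and Nt5e then read 1.51 (adjusted p = 6.59e-05), 0.78 (adjusted p = 0.000764) and 0.21 (adjusted p = 0.0756), so none of the 3 stayed negative. These signs follow from the group levels given above and are no separate evidence. One dim Gda probe set, 1422868_s_at, read 0.38 in the combined comparison (adjusted p = 0.04) where the other Gda probe sets were negative. The dim Nt5e probe sets 1422974_at and 1459023_at read -0.15 (adjusted p = 0.404) and 0.03 (adjusted p = 0.738) in it, and neither was called.

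Other genes of purine metabolism were followed as 3 lists. The 14 genes of de novo synthesis and PRPP supply, all tested, rose without exception in the Hprt knockout compared with wild-type. Their median was 0.79 beside 0.11 over all probe sets, of which 39.6% were called higher in that comparison and 26.3% in the exon 2 mutant. All 14 also rose in the exon 2 mutant, with a median of 0.44 beside 0.01. In that comparison 9 of 12 stem cell markers also rose, while 23 of 27 fibroblast markers and 8 of 10 primitive endoderm markers fell, and their part in this rise was not tested. In the trap line 5 rose and 3 fell (median 0.04), the 5 becoming 3 without the second trap array or either wild-type array, and against the Hprt knockout 0 rose and 14 of 14 fell (median -0.67). Of all probe sets 20.7% were called higher and 14.4% lower in the trap line against wild-type. In the trap line against the Hprt knockout 23.1% were called higher and 35.8% lower, with a median of -0.11. After cyclic loess 12 of 14 and 13 of 14 rose in the Hprt knockout and the exon 2 mutant. Prps2, which makes PRPP, the substrate that Hprt and Aprt consume, had means of 10.49 in the trap line, 10.99 in the Hprt knockout, 10.46 in the exon 2 mutant and 9.74 in wild-type. It rose by 1.25 ± 0.05 in the Hprt knockout (adjusted p = 1.73e-06), 0.75 ± 0.05 in the trap line (adjusted p = 0.000144) and 0.72 ± 0.05 in the exon 2 mutant (adjusted p = 0.000108), so all 3 mutant groups lay above wild-type. Gart, which carries 3 activities of the de novo pathway, was 1.39 ± 0.07 above wild-type in the Hprt knockout (adjusted p = 3.82e-06), and Mthfd1, a supplier of folate-bound carbon units, 1.41 ± 0.06 (adjusted p = 1.68e-06).

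Of 44 listed genes of nucleotide interconversion and nucleotidases, 35 had a probe set of their own and 32 were tested. Set against wild-type, 13 rose and 7 fell in the Hprt knockout, with a median of 0.08, and after cyclic loess 10 rose and 11 fell, with a median of -0.13. Of the same 32, 13 rose and 1 fell in the trap line, with a median of 0.17, and in the exon 2 mutant 12 rose and 3 fell, with a median of 0.09. The trap line against the Hprt knockout gave 9 higher and 11 lower. In the Hprt knockout that is 40.6% higher and 21.9% lower, beside 39.6% and 24.4% of all probe sets, so this count is near the share over the whole array. It is 40.6% and 3.12% in the trap line, beside 20.7% and 14.4%, and 37.5% and 9.38% in the exon 2 mutant, beside 26.3% and 20.1%. Between the trap line and the Hprt knockout it is 28.1% and 34.4%, beside 23.1% and 35.8%. The 13 that rose in the trap line became 5 without the first wild-type array, 8 without the first trap array and 7 without the second, and the 3 that fell in the exon 2 mutant became 1 without either wild-type array. Aox1, aldehyde oxidase, a relative of Xdh in the molybdenum enzyme family, averaged 7.16 in the trap line, 4.73 in the Hprt knockout, 6.06 in the exon 2 mutant and 6.02 in wild-type. It rose by 1.14 ± 0.10 in the trap line (adjusted p = 0.00033) and fell by 1.29 ± 0.10 in the Hprt knockout (adjusted p = 3.41e-05), where its mean was under the filter level. Ak1, an adenylate kinase, fell by 1.38 ± 0.07 in the Hprt knockout (adjusted p = 4.27e-06), whereas Adsl, which acts in de novo synthesis and in making AMP from IMP, rose by 1.06 ± 0.05 (adjusted p = 4.06e-06). Alpl, tissue-nonspecific alkaline phosphatase and a stem cell marker, rose against wild-type in the Hprt knockout (1.01 ± 0.09, adjusted p = 6.15e-05), the trap line (0.81 ± 0.09, adjusted p = 0.000841) and the exon 2 mutant (1.07 ± 0.09, adjusted p = 0.000161). Ampd3, an AMP deaminase, rose in the trap line (0.74 ± 0.08, adjusted p = 0.000647) and the exon 2 mutant (0.78 ± 0.08, adjusted p = 0.000305). Samhd1, which breaks down deoxynucleoside triphosphates, fell by 0.86 ± 0.08 in the trap line (adjusted p = 0.00047).

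**Figure D4:**
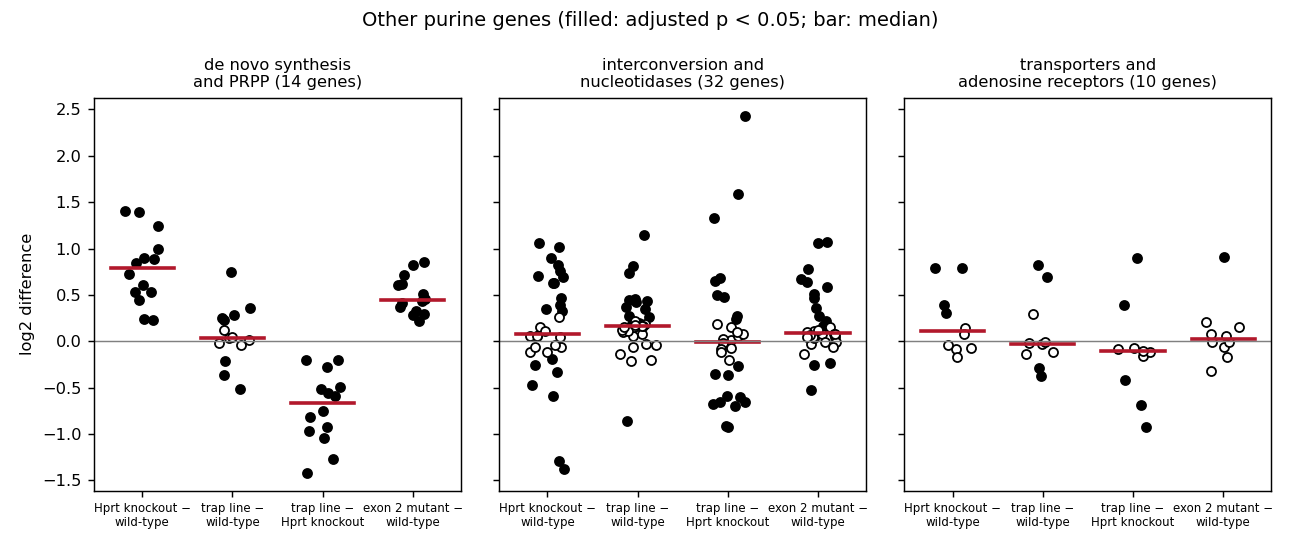
Log2 difference (y axis) of each tested gene of 3 other purine lists in 4 comparisons (x axis). Filled points have an adjusted p under 0.05 and red bars are list medians. All 14 de novo and PRPP genes lie above 0 in the Hprt knockout and the exon 2 mutant against wild-type, around a median of 0.04 in the trap line against wild-type, and below 0 in the trap line against the Hprt knockout.

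Of 16 listed transporters and adenosine receptors, 11 had a probe set of their own and 10 were tested. In the Hprt knockout against wild-type 4 rose and 0 fell, while after cyclic loess 2 rose and 2 fell. The trap line gave 2 higher and 2 lower, and in the exon 2 mutant 1 rose and 0 fell. Of all probe sets 39.6% were called higher and 24.4% lower for the Hprt knockout against wild-type, 20.7% and 14.4% for the trap line, and 26.3% and 20.1% for the exon 2 mutant. The 2 that fell in the trap line became 0 without the first trap array or the second wild-type array and 1 without the first wild-type array, and the 1 that rose in the exon 2 mutant became 2 without its second array. Where 0 had fallen, 1 fell in the Hprt knockout without the first wild-type array, and 1 in the exon 2 mutant without either Hprt knockout array. Dpp4, a surface peptidase known in human cells to bind Ada, rose by 0.79 ± 0.06 in the Hprt knockout (adjusted p = 3.96e-05), 0.69 ± 0.06 in the trap line (adjusted p = 0.000407) and 0.90 ± 0.06 in the exon 2 mutant (adjusted p = 9.18e-05). Slc29a1, an equilibrative nucleoside transporter, rose by 0.79 ± 0.10 in the Hprt knockout (adjusted p = 0.000372). Slc29a3, a transporter of the same family found in lysosomes, rose by 0.83 ± 0.07 in the trap line (adjusted p = 0.000339). Abcg2, an exporter that carries uric acid, fell by 0.28 ± 0.07 in the trap line (adjusted p = 0.0206).

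The genes with the most similar course over the 8 arrays were sought among 13112 genes, by the root mean square difference of log2 values after each gene was centred on its own mean. For Gda the nearest was Ctsk, at 0.0665 against Gda's own spread of 1.86, with group means of 10.78 in the trap line, 5.74 in the Hprt knockout, 8.89 in the exon 2 mutant and 9.68 in wild-type. The next, Oaf, lay farther off, at 0.218. For Xdh they were Rnase4 at 0.108 and Ddr2 at 0.12, against a spread of 1.52, and for Nt5e Pcdh18 at 0.112 and Snx33 at 0.143, against 0.884. For Hprt they were Rtl3 at 0.174 and Oasl1 at 0.206, against 0.925. For Adk they were Spata5 and Znrf2, at 0.0593 and 0.0616 against 0.397. For Aprt they were Arhgef1 and Tmem81, at 0.0347 and 0.0405 against 0.121. Ada was nearest to Ube2f and Klf16, at 0.0497 and 0.0557 against 0.268, Pnp to Pop7 and Zcchc17, at 0.0256 and 0.0276 against 0.22, and Dck to Chd6 and Hormad1, at 0.0454 and 0.0487 against 0.18. These likenesses describe 8 arrays of 4 groups.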

How the data were processed

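RNA was extracted with Trizol and labelled as biotinylated cRNA, per the labels' protocols. The deposited values are log2 intensities that the authors normalized with RMA, per the submitters' processing notes. The sources used here give no version of it. RMA brings arrays that are processed together towards the same distribution, and so it can hide a change shared by most genes. Array medians of 5.96 to 6.02 were found. Probe sets were named from the platform annotation: leaving out 64 controls, 34945 had 1 symbol, 932 several and 9160 none.

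Tested were the 28786 probe sets above the 40th percentile of their array on 2 or more of the 8 arrays. Tests used limma 3.58.1 in R 4.3.3, with 4 group means fitted to all 8 arrays (lmFit and eBayes, 4 residual degrees of freedom, 6.93 once moderated). Two-sided p-values were adjusted by Benjamini-Hochberg over all probe sets tested, with a threshold of 0.05. Differences are given with their standard errors. With 2 arrays on each side an exact permutation test gives p = 0.333 at best and was not used. The script was tested on simulated data. The number of arrays limits the precision.

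A member's value is its brightest probe set by mean over the arrays, and its other probe sets are reported beside it. From each list up to 4 genes per comparison could be named, those with the largest differences among genes past the threshold with arrays apart. From these 4, the text describes some. For each member the 2 most similar genes are named. The members and lists were chosen with earlier results of these data known. No label gives a batch. The exon 2 mutant arrays have record numbers far from the rest, and a batch cannot be told apart from the lines. Replicate numbers did not pair the samples across all groups. The correlation of same-numbered deviations was 0.188 between exon 2 mutant and Hprt knockout and 0.161 between trap line and wild-type. It was -0.271 to -0.162 between the other groups. An effect shared by arrays of different numbers was not tested. Promoter windows are from RefSeq in the GRCm38.p6 build.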

Additional observations from a re-analysis of the deposited data

Results flagged for a closer look

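The effect of the Gtf2i trap against the Hprt knockout was set against the effect of the exon 2 mutation against wild-type, in a single contrast of the same limma fit. This difference passed the threshold for 8 of the 9 enzymes, which is why they are listed here, and for 61.4% of all tested probe sets (24.4% higher and 37% lower), so passing it is common over the whole array. It was 5.86 ± 0.11 for Gda (adjusted p = 7.14e-08), 4.50 ± 0.12 for Xdh (adjusted p = 2.9e-07) and 2.32 ± 0.25 for Nt5e (adjusted p = 0.000172), on the log2 scale. For Gda and Xdh both Hprt knockout arrays lay below the filter level, so those sizes depend on the array background. The other Nt5e probe sets, 1422974_at and 1459023_at, gave 0.61 (adjusted p = 0.0863) and 0.00 (adjusted p = 0.983), and neither passed. These 3 enzymes were the ones whose Hprt knockout level was far below every other group, and fibroblast markers were low there too. The difference was 0.54 ± 0.08 for Hprt (adjusted p = 0.000671), 0.46 ± 0.08 for Pnp (adjusted p = 0.00218) and 0.41 ± 0.10 for Ada (adjusted p = 0.00978). It was -0.41 ± 0.10 for Adk (adjusted p = 0.0109) and -0.57 ± 0.17 for Dck (adjusted p = 0.0229). For Aprt it was 0.01 ± 0.08 (adjusted p = 0.925) and did not pass. After cyclic loess the difference was -0.17 for Adk (adjusted p = 0.173) and -0.30 for Dck (adjusted p = 0.154), so neither passed. The call for Dck was also lost without the first Hprt knockout array (-0.56, adjusted p = 0.058), the first trap array (-0.50, adjusted p = 0.0746) or the first wild-type array (-0.54, adjusted p = 0.0698). The lines differ in origin as well as in genotype, and these cannot be told apart.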

How the results depend on the processing

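With 2 arrays a group the counts of called enzymes moved by at most 1.5 times under every alternative run, with an exception: the count of enzymes called with arrays of both Hprt genotypes fully apart, 4 as reported, was 2 after cyclic loess. It was 6 without both Hprt knockout arrays, an alternative chosen after seeing the data that sets the trap line alone against the Hprt-intact lines. There Gda and Xdh joined the others with the opposite sign, at 1.51 and 0.78, beside -0.99 and -1.18 as reported. When single arrays were left out, the called enzymes numbered 5 to 8 for the Hprt knockout against wild-type, 5 to 6 for the trap line against wild-type, 5 to 7 for the trap line against the Hprt knockout, 4 to 5 for the exon 2 mutant, and 7 to 8 for the combined comparison.

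Cyclic loess moved the median of all tested probe sets from 0.11 to -0.03 in the Hprt knockout against wild-type and from -0.11 to 0.02 in the trap line against the Hprt knockout. The share of calls that were higher was 61.9% as reported and 46.9% after it for the Hprt knockout against wild-type, 39.2% and 54.3% in the trap line against the Hprt knockout, 56.7% and 46.6% in the exon 2 mutant, and 58.5% and 44.8% in the combined comparison. With 1 probe set per gene 9876 probe sets were called in the Hprt knockout, 5673 in the trap line, 9449 in the trap line against the Hprt knockout, 7674 in the exon 2 mutant and 8127 in the combined comparison, since fewer were tested. Leaving out a trap array or the first wild-type array left 6261 to 6526 calls for the trap line against wild-type, where 5949 were higher and 4159 lower as reported.

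Signs of single differences turned in the cases below, and the cause was not tested. After cyclic loess they were -0.112 for Pnp in the Hprt knockout, -0.058 for Dck in the trap line, and -0.0855 for Ada and -0.0351 for Dck in the combined comparison. After median centring Aprt read -0.0117 in the trap line against the Hprt knockout and 0.00103 in the exon 2 mutant. With single arrays left out, Dck in the trap line ranged over -0.0475 to 0.0839, Aprt over -0.0303 to 0.0456 in the trap line against the Hprt knockout and -0.0135 to 0.00868 in the exon 2 mutant, and in the combined comparison Ada over -0.0106 to 0.0516 and Dck over -0.0264 to 0.162. Without the Hprt knockout arrays the combined comparison was of the trap line alone against the Hprt-intact lines. It gave 1.51 for Gda, 0.78 for Xdh, 0.21 for Nt5e, -0.12 for Ada and -0.10 for Dck. Dim probe sets turned Nt5e (1459023_at) to 0.0272 in the Hprt knockout, -0.0254 in the trap line against it, -0.0562 in the exon 2 mutant against it and 0.029 in the combined comparison. They turned Adk (1421767_at and 1449641_at) to -0.0699 and -0.0984 in the trap line, 0.155 and 0.0576 in the exon 2 mutant and -0.23 and -0.16 in the trap line against the exon 2 mutant, and Gda (1422868_s_at) to 0.38 in the combined comparison.

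With the replicate number as a block, 64 of 68 single results kept their side of the threshold. The calls lost were Dck in the Hprt knockout (0.35, adjusted p = 0.0522), Dck in the trap line against it (-0.34, adjusted p = 0.0665), Hprt in the exon 2 mutant (0.17, adjusted p = 0.0729) and Ada in the trap line against the exon 2 mutant (0.23, adjusted p = 0.0602). The numbers did not pair the samples across all groups.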
